A study of Mus musculus with 4 samples.

Results

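The genes described here are 10 germ-cell RNA-binding and piRNA pathway genes, Ddx4, Dazl, Mael, Piwil2, Tdrd1, Tdrd5, Tdrd9, Mov10l1, Asz1 and Gtsf1. They were chosen by name, and all 10 were found among the 55401 genes in the count files. RNA was measured in oocytes from the ovaries of E18.5 fetuses, called primordial germ cells in the labels, which were sorted on the surface antigen SSEA-1 and amplified with SMART-Seq2, a method for full-length cDNA from few cells. The ICR mothers had been fed either normal chow (ND) or chow high in fat (HFD) over 4 months and were mated with males on ND, so that the diets differ in the mother only. There were 2 libraries per diet, each made from pooled oocytes of several fetuses, and every p-value therefore measures the spread between these 4 pools. In such bulk libraries, fewer cells of a type and less RNA per cell cannot be told apart.

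PIWI proteins bind short RNAs called piRNAs and use them to find and silence transposons in germ cells. In mouse fetal germ cells the pathway works in cytoplasmic granules known as nuage, where Tudor-domain proteins hold PIWI proteins and RNA helicases together. DDX4 and DAZL are also the classical RNA-binding markers of germ cells, DDX4 as a DEAD-box helicase of nuage and DAZL as a regulator of translation that acts on germ-cell mRNAs. The pathway is best known from the fetal testis, where its loss leads to sterility, whereas females without PIWIL2 are fertile in the mouse.

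The libraries held 5723605 to 8223255 counts, and 3 counts corresponded to 0.365 to 0.524 CPM, the count per 1000000 counts of a library. Counts over silent genes set a background limit in each library, the 99th percentile of reads per kilobase over 1407 olfactory receptor genes, and a gene was called above background only over this limit and over 3 counts. The limit was 9.08 to 14.6 reads per kilobase, and 11.6 to 17.5% of the protein-coding genes lay above it. The label of a germ cell was checked with 13 other germ-cell markers, whose summed level was 797 and 757 CPM with ND and 2876 and 3327 CPM with HFD. Of these markers 7 to 10 were above background in each library, while Pou5f1 and Taf4b were above it in none. A few genes carried the sums of both diets. In ND, Dppa5a and Sycp3 gave 454 and 205 CPM in replicate 1 and Stra8 gave 636 CPM in replicate 2. In HFD replicate 1, Nobox, Figla and Kit had 1278, 611 and 482 CPM. In HFD replicate 2, Sohlh1, Stra8 and Nobox had 1921, 664 and 567 CPM. Markers of other cells were present too. Stromal markers summed to 2843 and 69.0 CPM in ND replicates 1 and 2 and to 2222 and 7700 CPM in HFD replicates 1 and 2. In ND replicate 1 and HFD replicate 2 their sum was above that of the germ-cell markers. Blood markers reached 1973 CPM in ND replicate 1 and 2.18 to 11.5 CPM in the other 3 libraries. Pregranulosa markers summed to 413 CPM in ND replicate 2 and 1172 CPM in HFD replicate 2. Fst gave 383 CPM of the former and Amhr2 1113 CPM of the latter, while the other 10 pregranulosa markers, with Foxl2, which defines that lineage, were above background in none. Macrophage markers stayed at 11.1 to 40.9 CPM.

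The members lie on 8 chromosomes of GRCm38, and all are protein-coding. Ddx4 is at chr13:112598333-112652475 on the minus strand, Dazl at chr17:50279395-50293636 on the minus strand and Mael at chr1:166201201-166238747 on the minus strand. Piwil2 is at chr14:70372477-70429383 on the minus strand, Gtsf1 at chr15:103402405-103430470 on the minus strand, Mov10l1 at chr15:88982909-89055152 on the plus strand and Asz1 at chr6:18050964-18109061 on the minus strand. The Tudor-domain genes are Tdrd1 at chr19:56826209-56870012 on the plus strand, Tdrd5 at chr1:156255296-156303664 on the minus strand and Tdrd9 at chr12:111971559-112068854 on the plus strand. Their merged exons span 1390 bases in Gtsf1 to 6937 bases in Tdrd5. Of these genes, Tdrd5 alone shares exon bases with another gene, 176 bases with the antisense gene 4930518J20Rik, which held 1 to 19 counts per library.

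Promoters of germline genes of this kind are often rich in CG dinucleotides and carry E-boxes or E2F sites, through which they are silenced outside the germline. RefSeq promoter windows on GRCm38.p6, from 250 bases before to 50 bases after a start site, were at hand for 9 of the 10 members, in 11 windows of 300 bases. The E-box CACGTG was present on either strand in 5 members, Ddx4, Mael, Tdrd1, Tdrd9 and Mov10l1, and in 7.15% of all 32851 windows. The E2F letters GCGGGAA, or their reverse complement, were present in Ddx4 and Tdrd5, and in 4.6% of all windows. The sites are written 5′ to 3′ on the strand of the gene, with up to 11 bases on each side and the motif in capitals, because they are a feature of these members that the choice by name did not use.
Ddx4 E-box: gcgtccgcccgCACGTGcagccgtttaa
Ddx4 E2F: ccgtccatgggGCGGGAAgtcgcgcgccg
Mael E-box: accaggcctacCACGTGacaatccccgc
Tdrd1 E-box: ggggctgcgcgCACGTGggagtaaactg
Tdrd9 E-box, distal: gtctccataaaCACGTGcctgtccaggt
Tdrd9 E-box, proximal: cacgaggctccCACGTGcatgcagggcc
Mov10l1 E-box: ccttCACGTGctaaccgccaa
Tdrd5 E2F: TTCCCGCggcttcgggag
The Ddx4 stretches are at chr13:112652323-112652350 and chr13:112652429-112652457, and both are on the minus strand. The Mael stretch is at chr1:166238951-166238978 and the Tdrd5 stretch at chr1:156303581-156303598, both on the minus strand, and the latter shows the motif as its reverse complement. The Tdrd1 stretch is at chr19:56826187-56826214 and lies in 2 overlapping windows, the Tdrd9 stretches are at chr12:111971383-111971410 and chr12:111971453-111971480, and the Mov10l1 stretch is at chr15:88982744-88982764, each on the plus strand. The Ddx4 and Tdrd5 stretches lie in an exon at the 5′ end of the GENCODE gene models, the Tdrd1 stretch spans the start of its gene, and the others lie upstream of theirs. The Mov10l1 and Tdrd5 stretches are shorter because the motif lies at the edge of the window. The number of CG dinucleotides per window was above the median of all windows, which is 7, in 10 of the 11 member windows. It was 48 in Tdrd5, 38 in Ddx4, 28 in Dazl and 24 in Mael, but 20 in Mov10l1, 17 in Asz1, 13 in Gtsf1 and 10 in Tdrd9. Tdrd1 had windows with 25 and 20, and the member window below the median, with 3, belongs to a downstream start of Tdrd1. The 75th percentile of all windows was 20. Tdrd5 and Ddx4, which hold the E2F letters, had more CG dinucleotides than the other members, and a motif match is a description of letters and not of binding.

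**Figure D1:**
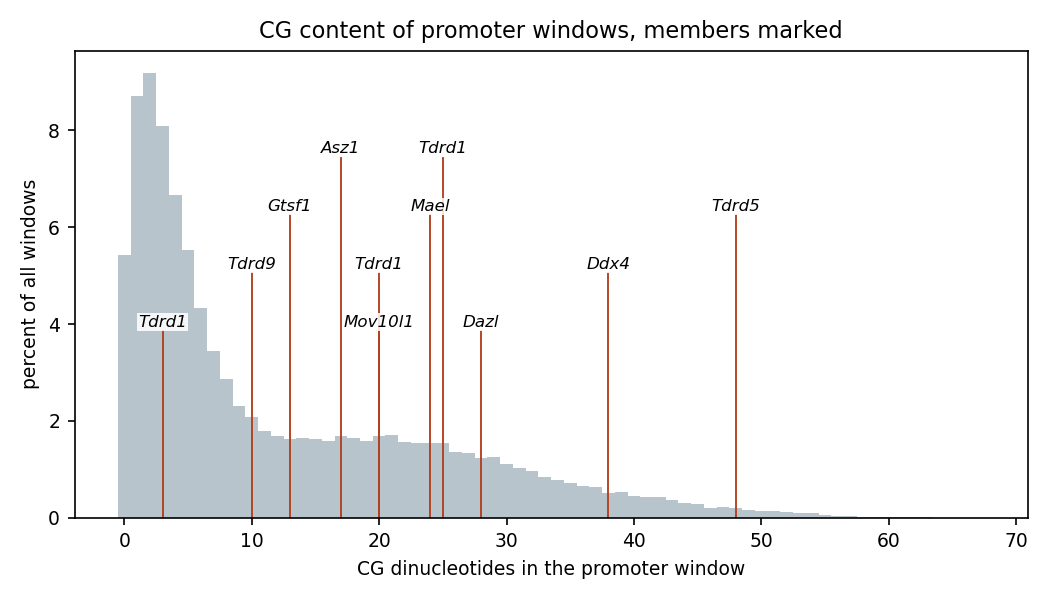
CG dinucleotides in RefSeq promoter windows of 300 bases. The grey distribution shows all windows, and each marked line is a member window. Of the member windows, 10 of 11 lie above the median of 7, with Tdrd5 at 48.

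Dazl had the highest level of the members in both ND libraries, also per length, and was lower in both HFD libraries. Its level was 1733 and 3770 CPM with ND and 453 and 8.56 CPM with HFD. The groups did not overlap, but the HFD libraries differed from each other 52.9-fold. By CPM, Dazl ranked 73 and 30 among all genes in the ND libraries, 679 in HFD replicate 1 and 4537 in HFD replicate 2. Its count of 49 in HFD replicate 2 was the only one of the 4 that was not above background. The group means were 2751 ± 1441 CPM (SD, n = 2) in ND and 231 ± 314 CPM (SD, n = 2) in HFD, and the fitted log2 difference, HFD minus ND, was -3.12 (SE 2.70, edgeR quasi-likelihood adjusted p = 0.684). Dazl was therefore not called, and without HFD replicate 1 its log2 difference was -9.07, against -2.12 without HFD replicate 2.

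Ddx4, the germ-cell helicase, was low in all 4 libraries for a gene that defines the lineage. Its counts were 49 and 97 with ND and 5 and 14 with HFD, which correspond to 5.96 and 12.4 CPM and to 0.774 and 2.45 CPM. The ND libraries were above background and the HFD libraries were not, and the groups did not overlap. The 95% Wilson intervals, which cover counting error only, were 4.51 to 7.88 and 10.2 to 15.1 CPM in ND and 0.331 to 1.81 and 1.46 to 4.11 CPM in HFD, so that no HFD interval reached an ND interval. The fitted log2 difference was -2.77 (SE 0.61), and it stayed between -3.32 and -2.14 when any 1 library was left out. Its edgeR p was 0.00366 before and 0.405 after Benjamini-Hochberg adjustment over all 19335 genes tested, and thus Ddx4 was not called. Before adjustment, edgeR gave 6.41% of all genes tested a p under 0.05 with a lower level in HFD. Both germ-cell RNA-binding markers were thus lower in HFD in every library pair. Of the 13 other germ-cell markers, Dppa3, Figla, Nobox, Sohlh1 and Syce3 had both HFD libraries above both ND libraries. Of all genes tested, 13.9% had this order. Tuba3a had both HFD libraries below both ND libraries, as had 13.4% of the genes tested, and 7 markers overlapped. Some of these orders were close. Syce3 had 9 counts in ND replicate 2 and 8 in HFD replicate 1, and Sohlh1 had 19 in both. Dppa3 was at 43.0 CPM in ND replicate 2 and at 47.0 CPM in HFD replicate 2.

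The levels of Dazl and Ddx4 can be set side by side only per length, as CPM per kilobase of exon (RPKM). Dazl was at 454 and 987 RPKM in ND and at 119 and 2.24 RPKM in HFD. Ddx4 was at 1.98 and 4.12 RPKM in ND and at 0.257 and 0.812 RPKM in HFD. Dazl was thus the higher of the pair in both ND libraries and in HFD replicate 1. In HFD replicate 2 neither reached the background limit of 2.55 RPKM, and they cannot be ranked there.

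**Figure D2:**
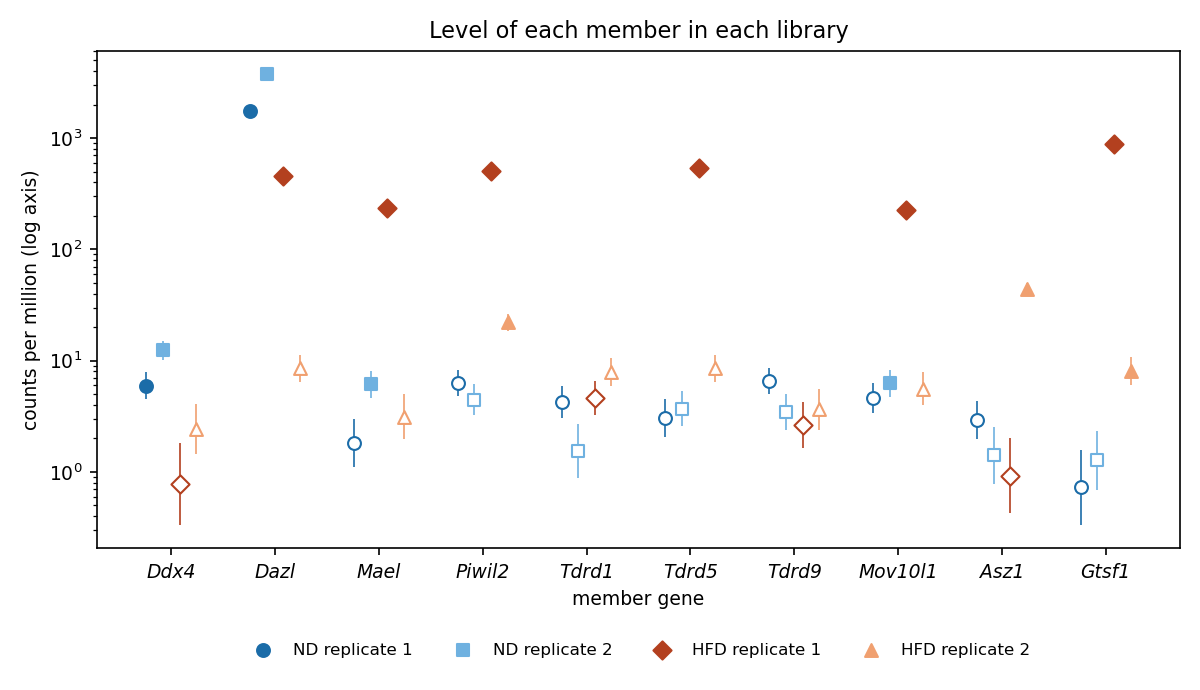
Level of each member in the 4 libraries, in CPM on a log axis, with a point per library and the 95% Wilson interval of counting error (filled symbols above background, open symbols not). Dazl is high in both ND libraries, whereas Mael, Piwil2, Tdrd5, Mov10l1 and Gtsf1 stand out in HFD replicate 1 and Asz1 in HFD replicate 2.

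Among the piRNA pathway members, 5 had their high level in a single library, HFD replicate 1. Piwil2 encodes MILI, the PIWI protein of the fetal germline that binds piRNAs and cuts transposon RNA. Its level was 6.32 and 4.48 CPM in the ND libraries, 504 CPM in HFD replicate 1 and 22.2 CPM in HFD replicate 2. Both HFD libraries were above background and above both ND libraries, and HFD replicate 1 was 22.7 times the next library. Piwil2 averaged 5.4 ± 1.3 CPM (SD, n = 2) in ND and 263 ± 341 CPM (SD, n = 2) in HFD.

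Gtsf1 encodes a small zinc finger protein that assists PIWI proteins in cutting their targets. It had 6 and 10 counts in the ND libraries, 5703 in HFD replicate 1 and 46 in HFD replicate 2, that is 0.730, 1.28, 883 and 8.04 CPM. Both ND libraries were at background and both HFD libraries were above it, with no overlap. At 635 RPKM in HFD replicate 1, Gtsf1 had the highest level per length of the members in that library and ranked 262 among all genes by CPM. The HFD libraries differed 110-fold for Gtsf1, and their mean was 446 ± 619 CPM (SD, n = 2), against 1.0 ± 0.389 CPM (SD, n = 2) in ND.

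Mov10l1 encodes the RNA helicase that starts piRNA biogenesis from long precursor transcripts. Its level was 4.62 and 6.27 CPM in ND, 228 CPM in HFD replicate 1 and 5.59 CPM in HFD replicate 2. HFD replicate 2 fell between the ND libraries, and the groups overlapped. Mael encodes Maelstrom, a nuage protein needed for transposon silencing. Its level was 1.82 and 6.14 CPM in ND, 235 CPM in HFD replicate 1 and 3.14 CPM in HFD replicate 2. Here too HFD replicate 2 lay between the ND libraries, and HFD replicate 1 was 38.3 times the next library for Mael and 36.3 times for Mov10l1.

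The Tudor-domain genes did not share a pattern. Tdrd5, which is required for nuage to form properly in male germ cells, was at 3.04 and 3.71 CPM in ND, at 543 CPM in HFD replicate 1 and at 8.56 CPM in HFD replicate 2. Its HFD libraries lay above both ND libraries, but only HFD replicate 1 was above background, at 63.5 times the next library. Tdrd1, a scaffold that binds PIWI proteins, was at 4.26 and 1.54 CPM in ND and at 4.65 and 7.86 CPM in HFD. Tdrd9, a helicase with a Tudor domain that works in transposon silencing, was at 6.57 and 3.45 CPM in ND and at 2.63 and 3.67 CPM in HFD. Tdrd1 and Tdrd9 were above background in no library, with 12 to 54 counts each, so that their levels cannot be told from those of silent genes at this depth.

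Asz1 encodes GASZ, an ankyrin-repeat protein that anchors nuage at mitochondria, and it had a pattern of its own. Its level was 2.92 and 1.41 CPM in ND, 0.929 CPM in HFD replicate 1 and 43.9 CPM in HFD replicate 2. HFD replicate 2 alone was above background, at 15 times the next library, whereas HFD replicate 1 was the lowest of the 4. Asz1 and the 5 members high in HFD replicate 1 were therefore high in different pools of the same diet.

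The 9 piRNA and helicase members without Dazl summed to 36.2 and 40.7 CPM in the ND libraries, to 2403 CPM in HFD replicate 1 and to 105 CPM in HFD replicate 2. With Dazl the sums were 1769, 3811, 2856 and 114 CPM, in the same order. Of the 10 members, 2 and 4 were above background with ND and 6 and 3 with HFD, and none was above it in all 4.

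Mael, Piwil2, Tdrd5, Mov10l1 and Gtsf1 were at least 10 times as high in HFD replicate 1 as in every other library, a pattern shared by 864 of the genes tested, or 4.47%. In the same library the 9 stromal markers summed to 2222 CPM, with 3 above background, against 2843, 69.0 and 7700 CPM in ND replicates 1 and 2 and HFD replicate 2. The 6 endothelial markers summed to 700 CPM there, against 22.7, 73.1 and 39.5 CPM in ND replicates 1 and 2 and HFD replicate 2. Of these, Kdr gave 4398 of the counts in HFD replicate 1, while Pecam1, Cdh5, Tek, Emcn and Egfl7 had 10 to 64 counts, 2 of the 6 were above background there, and Cdh5, a defining endothelial gene, had 10. Germ-cell markers were uneven in that library. Nobox had 8252 counts there, against 14 and 50 in ND and 3246 in HFD replicate 2, and Figla had 3943, against 8, 13 and 296. Sohlh1, Sohlh2, Stra8, Dppa5a and Tuba3a had 2 to 19 counts there, although Stra8 had 4972 in ND replicate 2 and Dppa5a 3731 in ND replicate 1. The part of these markers in the levels of the 5 members was not tested.

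The spread between libraries of the same diet was unequal. Over the 10 members, the median absolute log2 difference between libraries (CPM + 1) was 0.73 in ND and 4.83 in HFD, beside 0.63 and 1.13 over all genes tested. CPM leaves out the TMM factors of the fit, which were 1.02 and 0.940 in ND and 0.692 and 1.51 in HFD. These differences therefore include any shift between whole libraries. Mael, Piwil2, Tdrd5, Mov10l1, Gtsf1 and Dazl were higher in HFD replicate 1 than in HFD replicate 2, and Asz1 was lower. Ddx4, Tdrd1 and Tdrd9 were also lower by CPM. They were at background in both HFD libraries, so their order there cannot be told. HFD replicate 2 had the fewest counts and the highest background limit of the 4 libraries.

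**Figure D3:**
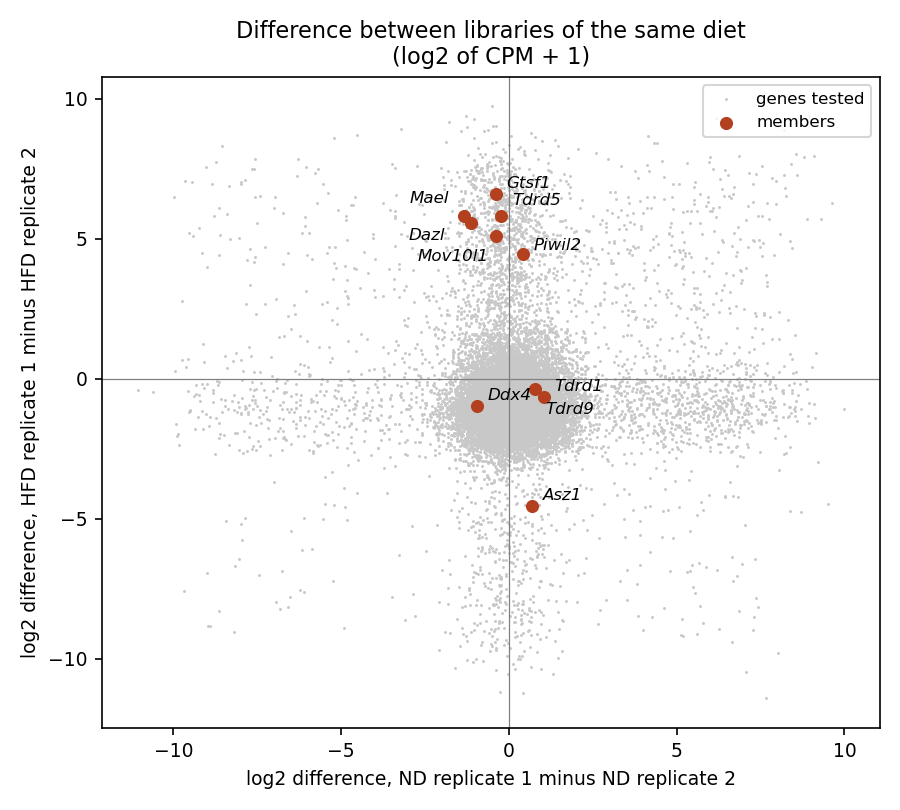
Log2 difference (CPM + 1) between the ND libraries on the x axis and between the HFD libraries on the y axis, with genes tested in grey and members in red. Gtsf1, Tdrd5, Mael, Dazl, Mov10l1 and Piwil2 lie far above 0 on the y axis and Asz1 far below, while the members spread less along the x axis.

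The comparison of the diets asked whether maternal HFD changed RNA levels in the fetal oocytes. None of the 10 members passed edgeR's quasi-likelihood test at an adjusted p under 0.05 and a fold over 1.5, and their adjusted p ran from 0.405 to 0.684. The same test called 0 of all 19335 genes, or 0%, and 2186 of them had a p under 0.05 before adjustment. All 10 members had passed the filter on low counts. Mael, Piwil2, Tdrd5, Mov10l1, Asz1 and Gtsf1 each had most of their counts from 1 HFD library. Gtsf1, with 6 and 10 counts in the ND libraries, passed the filter only through the HFD libraries, where it was high. The fitted difference was higher in HFD for 7 members and lower for 3, with a median log2 difference of 3.84, beside 0.03 over all genes tested. Both rest on HFD replicate 1, without which 5 members were higher and 5 lower and their median was -0.05.

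Among the PIWI protein and its partners, the fitted log2 difference was 9.24 (SE 3.17) for Gtsf1, 6.07 (SE 2.40) for Piwil2 and 4.88 (SE 2.24) for Mov10l1. For the nuage proteins it was 6.82 (SE 2.70) for Tdrd5, 5.35 (SE 2.52) for Mael and 2.81 (SE 1.46) for Asz1. In each of these 6 members 1 HFD pool carried most of the counts. Tdrd1 and Tdrd9, both at background, had 1.03 (SE 0.60) and -0.70 (SE 0.49).

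Gtsf1, Tdrd5 and Piwil2, with an adjusted p of 0.405 each, had an edgeR p of 0.0269, 0.0471 and 0.0473 before adjustment. They are 3 of 10 members with such a p under 0.05 and a higher level in HFD, beside 4.9% of all genes tested. In the opposite direction Ddx4 was the only member with an edgeR p under 0.05. Gtsf1 had entered the test only through its HFD libraries. Piwil2, Tdrd1, Tdrd5 and Gtsf1 had both HFD libraries above both ND libraries, as had 13.9% of the genes tested. Ddx4 and Dazl had both HFD libraries below both ND libraries, as had 13.4%. With 2 libraries against 2, an exact two-sided permutation test of a single gene cannot give a p under 0.333.

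**Figure D4:**
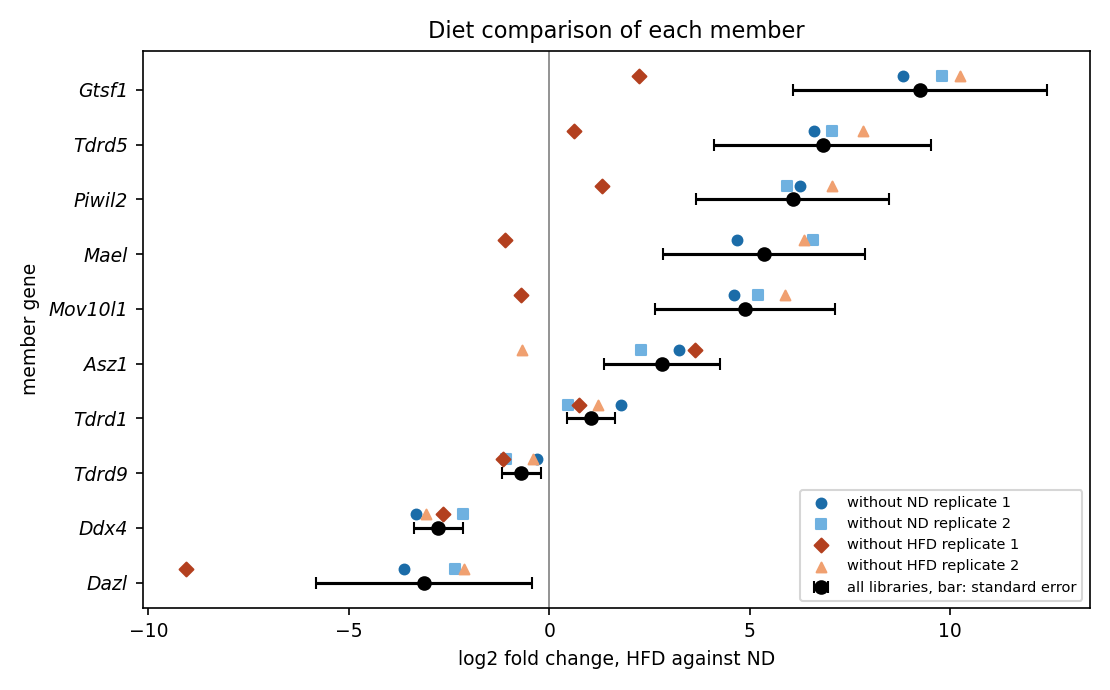
Log2 difference HFD minus ND of each member with its standard error (derived from the edgeR F statistic), and the values with each library left out. Mael and Mov10l1 cross 0 without HFD replicate 1 and Asz1 crosses 0 without HFD replicate 2, while Ddx4 stays between -3.32 and -2.14.

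A different test moved the calls. DESeq2 called Gtsf1 (adjusted p = 3.22e-06), Tdrd5 (adjusted p = 0.000239), Piwil2 (adjusted p = 0.000446), Mael (adjusted p = 0.00465) and Mov10l1 (adjusted p = 0.00635), all higher in HFD, as it did 29.7% of the 4658 genes to which it gave an adjusted p. It gave none to Ddx4, Tdrd1 and Tdrd9, and did not call Dazl (adjusted p = 0.0805) or Asz1 (adjusted p = 0.107). The called genes are the 5 members that were high in HFD replicate 1. DESeq2 gives an adjusted p only to genes over a limit on the mean count. The 5 members had 6 to 52 counts in the ND libraries and 1471 to 5703 in HFD replicate 1. Most of the counts behind their means thus came from HFD replicate 1. Without that library the edgeR log2 difference was 2.24 for Gtsf1, 1.32 for Piwil2, 0.61 for Tdrd5, -0.70 for Mov10l1 and -1.09 for Mael, so that Mael and Mov10l1 changed sign. Asz1, high in HFD replicate 2, was at -0.69 without that library.

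The rest of the pathway was described with 24 other piRNA pathway genes, of which 23 were tested. None passed, and the median log2 difference was -0.23, with 10 higher and 13 lower in HFD. Of the 24 genes, 13 were above background in no library, as were 11600 of the 19335 genes tested. Before adjustment 0 were higher and 4 lower at an edgeR p under 0.05, beside 4.9% and 6.41% of all genes tested. Over its limit on the mean count, which a gene can pass through 1 high library, DESeq2 called 5 higher and 1 lower of the 7 with an adjusted p. Over all genes it called 1382 higher, or 29.7%, and 1187 lower of 4658 with an adjusted p. Fkbp6, a co-chaperone in piRNA biogenesis, had 152 and 355 counts in ND and 1885 and 6326 in HFD, and Stk31, a Tudor-domain kinase-like gene, was at 19.6 and 7.55 CPM in ND and at 580 and 128 CPM in HFD. Tex15, which acts with PIWI in the nucleus, was at 50.2 and 6.14 CPM in ND and at 153 and 3356 CPM in HFD. These 3 genes were above both ND libraries in both HFD pools, with log2 differences of 4.13 (SE 1.83), 5.07 (SE 2.08) and 5.46 (SE 2.55) and an edgeR adjusted p no lower than 0.405. Of the 24 genes, 4 had this order and 4 the opposite one, beside 13.9% and 13.4% of all genes tested.

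Other genes of this list followed 1 pool, as most members did. Tex19.1 was at 4.50 and 5.37 CPM in ND, 202 CPM in HFD replicate 1 and 4.89 CPM in HFD replicate 2. Rnf17, a Tudor-domain gene, was high in HFD replicate 2 alone, at 398 CPM against 2.48 to 7.17 CPM, as Asz1 was. Mybl1, which encodes a transcription factor of piRNA precursors in the testis, was at 383 CPM in ND replicate 1 and at 2.01 to 6.91 CPM elsewhere, and its log2 difference was -5.90, or -1.27 without that library. Btbd18 had 3 to 24 counts, Exd1 12 to 36 and Prmt5, an arginine methyltransferase that modifies PIWI proteins, 6 to 59. Their CPM was lower in both HFD libraries than in either ND library, with log2 differences of -2.12, -0.91 and -1.66. This order held for 4 of the 24 genes, beside 13.4% of all genes tested. Btbd18 and Exd1 were above background in no library, so their levels cannot be told from those of silent genes. Prmt5 was above background in the ND libraries only. Pnldc1 and Gpat2 were above background in 2 and 3 libraries but at no more than 8.70 CPM.

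Of 22 other germ-cell RNA-binding genes, 21 were tested and none passed, with a median log2 difference of 0.44. Above background in no library were 7 of the 22. Before adjustment, Elavl2, Ybx2 and Fxr1 were higher and Dnd1 lower at an edgeR p under 0.05, beside 4.9% and 6.41% of all genes tested. DESeq2 called 6 higher and 1 lower of 10 that passed the same limit and had an adjusted p, beside 1382 and 1187 of all 4658 such genes. Elavl2, an RNA-binding gene of the ELAV family, was at 6.20 and 8.96 CPM in ND and at 613 and 2934 CPM in HFD. Ybx2, whose product binds stored mRNA in oocytes, was at 2.31 and 2.94 CPM in ND and at 55.0 and 547 CPM in HFD, and Fxr1 was at 10.1 and 8.70 CPM in ND and at 190 and 645 CPM in HFD. These genes were higher in both HFD pools than in either ND pool, and their log2 differences were 7.51, 6.36 and 5.20. Of the 22 genes, 4 had this order and 1 the opposite one, beside 13.9% and 13.4% of all genes tested. Dnd1, a partner of NANOS proteins in germ cells, was at 2502 CPM in ND replicate 2 and at 1.55 to 4.54 CPM in the other 3 libraries. Its log2 difference of -8.97 was 0.07 without that library.

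Boll, the DAZL-related gene, was at 26.1 and 2.56 CPM in ND and at 340 and 4.19 CPM in HFD, so that it shared with Dazl a higher level in HFD replicate 1 than in HFD replicate 2. Fmr1 at 512 CPM and Ddx6 at 424 CPM were also high in HFD replicate 1 alone, with at most 8.96 and 9.43 CPM elsewhere. Cpeb1 was at 904 and 4.86 CPM in ND and at 2.63 and 1806 CPM in HFD, and Pum2 was at 22.5 and 676 CPM in ND and at 733 and 13.5 CPM in HFD, each high in 1 pool of either diet. Zfp36l2 reached 91.0 CPM in HFD replicate 2, Rbpms2 13.1 CPM in ND replicate 2 and Nanos3 2.55 CPM in ND replicate 1. The median absolute log2 difference between the HFD libraries was 1.35 in the piRNA list and 1.76 in the RNA-binding list, beside 4.83 in the members, and the difference between lists was not tested. These values too are from CPM without the TMM factors.

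**Figure D5:**
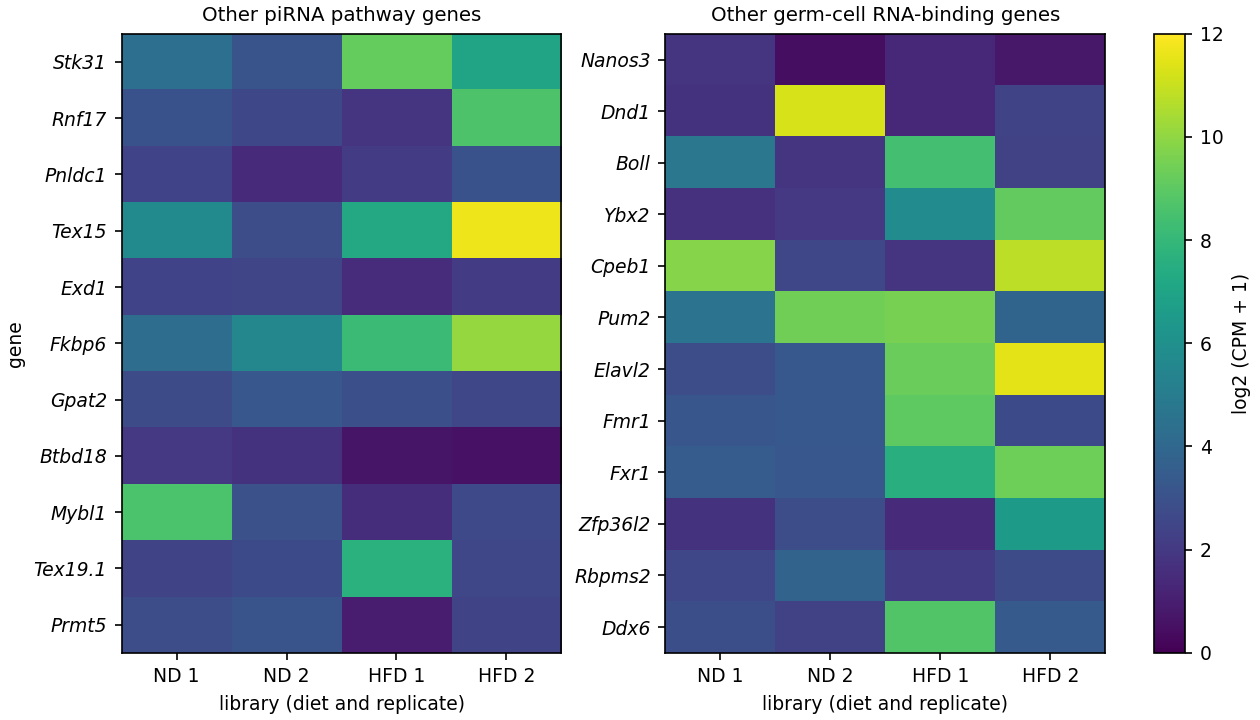
Level of the named genes of the other piRNA pathway and germ-cell RNA-binding lists in the 4 libraries, as log2 (CPM + 1) on 1 colour scale. Fkbp6, Stk31, Tex15, Elavl2, Ybx2 and Fxr1 are brighter in both HFD libraries, while Tex19.1, Fmr1 and Ddx6 are bright in HFD replicate 1 alone.

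For each member the protein-coding gene of most similar level was found by the Euclidean distance of log2 CPM over the 4 libraries. Eif3k was nearest to Dazl, at a distance of 0.66, with 11177 and 21892 counts in ND and 3670 and 54 in HFD, and it was the only gene within a distance of 1. Plk2 was the only gene within that distance of Asz1, with 29, 11, 8 and 283 counts. Nptx2 was nearest to Gtsf1 (0.72), with 3 genes within a distance of 1, and Tsc22d2 was nearest to Piwil2 (0.49), with 18. Rangap1, Nfix and Ralb were nearest to Tdrd5, Mov10l1 and Mael, which had 45, 60 and 15 genes within a distance of 1. The nearest genes of the members close to background were Ube2d1 for Ddx4, Hk1 for Tdrd1 and Cdhr3 for Tdrd9, and as many as 382 and 609 genes lay within that distance of Tdrd1 and Tdrd9. None of these nearest genes is on either pathway list.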

How the data were processed

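RNA of SSEA-1-sorted E18.5 fetal oocytes was measured in 2 ND and 2 HFD libraries. After trimming with Trim Galore, the authors used HISAT2 for alignment to mm10 and featureCounts for counting, and the deposited values are raw counts per Ensembl gene, 1 library per file. The annotation release, the strand setting and the treatment of reads that align to several places are not given in the sources used here. Libraries were grouped by diet and numbered as in the labels.

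Genes were named from GENCODE M21 (GRCm38), which lists 55141 of the 55401 identifiers. CPM is the count over the library total, and RPKM also divides by merged exon length. Wilson intervals (95%) cover counting error only. The diets were compared in R 4.3.3 with edgeR 4.0.16 (quasi-likelihood, TMM, filterByExpr, no block) over 19335 genes. Limits were a Benjamini-Hochberg adjusted p under 0.05 and a fold over 1.5. The SE given with an edgeR log2 difference is its absolute value over the square root of the F statistic. The TMM factors were 1.02 and 0.940 in ND and 0.692 and 1.51 in HFD replicates 1 and 2. CPM does not use these factors, so an order of libraries with close CPM can differ from that in the fit. Alternatives were other normalizations and filters, edgeR's legacy fit, DESeq2 1.42.0, limma-voom (limma 3.58.1), a replicate block, no fold minimum and each library left out. The fits were run on simulated counts as a check of the code. Those counts did not copy the spread between the HFD libraries, so they do not show what the fits miss here. All members are named. Of the other lists, genes above background in 2 or more libraries, over 50 CPM in any or with an unadjusted p under 0.05 are named. The members and lists were chosen with earlier results of these data known.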

Additional observations from a re-analysis of the deposited data

How the results depend on the processing

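Of 117 log2 differences of members under alternatives, 114 kept their sign, and the 77 that leave out no library all did. With each library left out in turn, Mael ranged from -1.09 to 6.59 and Mov10l1 from -0.70 to 5.87, both lowest without HFD replicate 1, and Asz1 from -0.69 to 3.62, lowest without HFD replicate 2. A diet left with 1 library was assumed to vary like the other. The number of genes called was 0 in the edgeR fit reported, where 2186 had an unadjusted p under 0.05. It was also 0 with RLE factors, library size only, no filter, at least 10 counts in every library (which kept 7 members), limma-voom, no fold minimum and each library left out. The legacy edgeR fit called 12 genes higher and 22 lower, no member among them, and DESeq2 called 1382 higher and 1187 lower, with 5 members among the former. For the differences between tools the cause was not tested. The replicate numbers did not pair the libraries (r = 0.0112 between the replicate deviations of the diets over genes), and with the replicate number as a block the count of calls was 0. The members above background in ND replicates 1 and 2 and HFD replicates 1 and 2 numbered 7, 5, 7 and 5 at the 95th percentile of olfactory receptor genes, 1, 1, 6 and 1 at their maximum and 6, 4, 7 and 4 without gene length. With 2 pools per diet and Ddx4, Tdrd1 and Tdrd9 at 5 to 97 counts, depth and the number of pools limit what can be said of these genes.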
